A study of Mus musculus with 18 samples.

Results

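Cdk2, its cyclins and its regulators were followed as 10 genes, taken by gene symbol from each of the 3 deposited tables: the kinase gene Cdk2; the cyclin genes Ccne1, Ccne2 and Ccna2; the inhibitor gene Cdkn1b; the phosphatase gene Cdc25a; and the upstream genes Cdk4, Ccnd1, Rb1 and E2f1. All 10 were found in every table, in 48, 48 and 47 transcript rows, among 30365, 30386 and 30631 genes in the tables of MCA205 cells, TC1 cells and TC1 tumours. The 18 mouse libraries fell into 6 groups of 3: wild-type and sgNAT10 MCA205 cells in culture, wild-type and sgNAT10 TC1 cells in culture, and subcutaneous tumours grown from wild-type or sgNAT10 TC1 cells and harvested on day 8. NAT10 is the RNA acetyltransferase that makes N4-acetylcytidine, and sgNAT10, the genotype label, reads by common usage as a single guide RNA against its gene. The mouse strain, the age of the hosts, the guide used for the wild-type cells and whether sgNAT10 cells are 1 clone or a pool are not given in the sources used here. No sort is described for the tumours, so their RNA can hold that of host cells. Separate cultures or animals are not named for replicate libraries, so p-values measure the spread between these libraries, which may be technical. The labels call both lines fibrosarcoma. TC1 is commonly described as lung epithelial cells transformed with papillomavirus oncogenes. The series title places CDK2 between MYC and DNMT1 in a pathway below NAT10, so the question put to these genes is how their transcripts differ between the genotypes. Cdk2 was thus named by the study itself, and its direction is not independent evidence.

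CDK2 is a serine/threonine kinase that is active only when bound to a cyclin. It pairs with E-type cyclins as cells leave G1 and with cyclin A during S phase. Before that step CDK4 with D-type cyclins begins to phosphorylate the RB protein, and CDK2 with cyclin E completes this, which releases E2F factors that switch on genes of DNA replication and also the cyclin E genes. The p27 protein, made from Cdkn1b, binds and inhibits these complexes, and the CDC25A phosphatase removes inhibitory phosphates from CDK2.

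Cdk2 lies on the minus strand at chr10:128697939-128705031 (mm10, the build of the tables). Its annotated transcripts differ at an exon that is either included or skipped and at the first intron, so the sequences that tell the isoforms apart are shown first, read from the GENCODE M21 transcripts of the same build and written 5′ to 3′ in the sense of the gene. The 8-exon coding transcript ENSMUST00000026416 (346 codons) holds a coding exon of 144 bases, or 48 codons, at chr10:128699976-128700119. The 7-exon coding transcript ENSMUST00000026415 (298 codons) joins the flanking exons directly. ENSMUST00000219099, annotated as a retained-intron transcript, also lacks this exon and keeps the whole first intron of 708 bases (chr10:128704004-128704711). Capitals mark the optional exon in the first sequence and the first 36 bases of the kept intron in the third, and the lower-case letters are the 24 neighbouring exon bases on each side.
Exon included: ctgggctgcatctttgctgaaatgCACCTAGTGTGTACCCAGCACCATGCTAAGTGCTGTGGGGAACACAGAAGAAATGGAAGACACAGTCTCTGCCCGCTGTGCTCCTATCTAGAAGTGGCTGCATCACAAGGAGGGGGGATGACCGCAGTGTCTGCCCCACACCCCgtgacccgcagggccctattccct
Exon skipped: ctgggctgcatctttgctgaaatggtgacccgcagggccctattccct
First intron kept: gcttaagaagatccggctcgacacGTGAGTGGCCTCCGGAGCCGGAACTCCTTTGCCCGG

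Promoter windows of 6 of the 10 genes were in the RefSeq table used here (GRCm38.p6, from 250 bases before to 50 bases after the start). They were searched on both strands for the E2F words TTTCCCGC, TTTGGCGC, TTTCGCGC and TTTGCCGC, the E-box CACGTG, which MYC with its partner MAX can bind, the CHR word TTTGAA, the GC box GGGCGG and CCAAT. In these windows only neighbouring GC boxes, in Cdc25a and Cdk4, shared letters. An E2F word was present in 2.26% of the 32851 windows of the table, an E-box in 7.15%, a CHR word in 17.89%, a GC box in 35.66% and CCAAT in 37.41%. Cdk2 had 1 E2F word, beginning 140 bases before the start, with 1 CCAAT and 6 GC boxes, and Cdc25a had 1 E2F word, beginning 67 bases before the start, with 2 CCAAT and 2 GC boxes. Cdk4 had 4 E-boxes, beginning 172, 118, 98 and 11 bases before the start. The windows of Ccne1, Cdkn1b and E2f1 held none of the E2F words and no E-box, and those of Ccne1 and E2f1 lie inside the annotated gene of the tables, so they say nothing of the region upstream of it. The 250 upstream bases of the windows with an E2F word or an E-box are shown with E2F words, E-boxes and CCAAT in capitals, on either strand (Cdk2, chr10:128705052-128705301, minus strand; Cdc25a, chr9:109875329-109875578, plus strand; Cdk4, chr10:127063285-127063534, plus strand). A match is a description of the letters and not a site in use.
Cdk2: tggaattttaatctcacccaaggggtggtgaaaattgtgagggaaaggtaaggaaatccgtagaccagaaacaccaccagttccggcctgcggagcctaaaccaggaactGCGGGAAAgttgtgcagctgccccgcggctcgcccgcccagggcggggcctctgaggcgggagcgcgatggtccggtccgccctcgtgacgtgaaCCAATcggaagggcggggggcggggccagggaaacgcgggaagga
Cdc25a: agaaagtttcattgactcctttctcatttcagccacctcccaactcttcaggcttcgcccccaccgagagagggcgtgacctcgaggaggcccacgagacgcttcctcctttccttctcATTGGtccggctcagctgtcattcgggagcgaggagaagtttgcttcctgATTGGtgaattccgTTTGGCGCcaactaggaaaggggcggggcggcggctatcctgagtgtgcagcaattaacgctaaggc
Cdk4: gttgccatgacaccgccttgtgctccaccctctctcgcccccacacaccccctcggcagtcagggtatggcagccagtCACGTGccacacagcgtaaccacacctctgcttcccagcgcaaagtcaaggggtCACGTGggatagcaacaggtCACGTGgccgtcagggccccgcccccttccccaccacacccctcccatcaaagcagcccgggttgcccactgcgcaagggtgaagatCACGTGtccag

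Libraries held 51661298 to 78501790 estimated counts. Nat10 itself was not called in any table, at 12.5 to 14.2 FPKM in MCA205 cells, 11.7 to 15.9 in TC1 cells and 12.3 to 16.3 in the tumours (fragments per kilobase of transcript, scaled to library size, a level per length), which does not check the labels, since a guide need not lower the transcript. In TC1 cells 5 of 7 listed epithelial genes of the lung were at or over 1 FPKM in all wild-type libraries (Krt8 at 15.8 to 73.8 FPKM and Epcam at 6.12 to 29.4 over all 6), and the list summed to 34.999 to 166 FPKM in wild-type and 50.04 to 87.0 in sgNAT10 cells. The listed genes Nkx2-1 and Sftpc were at or below 0.101 FPKM in TC1 cells, and the mesenchymal gene Vim was at 972 to 1343 FPKM. In MCA205 cells Sftpc was at 5.68 FPKM in wild type 1 and at or below 0.126 FPKM in the other libraries. Several libraries of cultured cells held transcripts of liver and intestine: the summed level of 10 such genes was 0.975, 242 and 61.7 FPKM in the wild-type MCA205 libraries and 52.3, 0.878 and 61.5 in the sgNAT10 ones. In the same order Krt8 was at 1.11, 47.1 and 18.1 FPKM in wild-type and 16.5, 0.464 and 17.0 in sgNAT10 MCA205 libraries. In wild-type tumours 1, 2 and 3 the 10 genes summed to 1.38, 39.7 and 159 FPKM, and Krt8 was at 0.285, 18.6 and 16.9 FPKM. In the sgNAT10 tumours they summed to 382 to 423 FPKM, with Krt8 at 4.01 to 6.03 FPKM. Krt8 thus did not follow the sum across the tumours. Whether the epithelial transcripts in TC1 cells come from those cells was not tested. The 10 genes summed to 681 to 1380 FPKM in wild-type and 883 to 1297 in sgNAT10 TC1 cells. Alb was at 277 to 479 FPKM in all 6 TC1 cell libraries. Wild type 2 of MCA205 cells also differed in 4 skeletal muscle genes, which summed to 53.8 FPKM there and to 0.286 to 1.55 in the other MCA205 libraries. By the liver and intestine genes, wild type 1 and sgNAT10 2 of MCA205 cells stood apart from the other 4. The fit without these 2 libraries keeps wild type 2. Without that pair Ccne2 (log2 change 0.28, edgeR adjusted p = 0.00919) and Cdc25a (0.22, edgeR adjusted p = 0.0308) were also called higher. Within TC1 cells sgNAT10 1 differed more from sgNAT10 2 and 3 (chi-square per degree of freedom of the gene counts 65.0 and 79.6) than these from each other (11.9).

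Cdk2 transcript was lower in sgNAT10 libraries of both cultured lines and, by a smaller amount, in the tumours. The 3 wild-type MCA205 libraries read 74.2, 56.0 and 63.6 FPKM, and their sgNAT10 counterparts 16.9, 18.4 and 19.0. Every sgNAT10 library lay well under every wild-type library, and Cdk2 fell by 1.85 on the log2 scale (standard error 0.11, edgeR adjusted p = 4.02e-05). In TC1 cells the levels were 57.2, 79.9 and 78.0 against 31.8, 37.0 and 35.6 FPKM, a log2 change of -1.11 (standard error 0.13, edgeR adjusted p = 0.000907), again without overlap. In the tumours they were 19.9, 21.2 and 22.1 against 15.3, 19.2 and 16.9 FPKM, a log2 change of -0.41 (standard error 0.11, edgeR adjusted p = 0.0451). The tumour groups did not overlap either, but sgNAT10 2 lay close to the lowest wild-type tumour, and only leaving out wild type 3 kept the call. Each of the other 5 libraries ended it when left out, with an edgeR adjusted p from 0.0786 to 0.135. With all 6 tumours it was also lost with RLE size factors (edgeR adjusted p = 0.0513), library size alone (0.120) or no filter (0.0697), and with limma on log2(FPKM + 1) (log2 change -0.29, adjusted p = 0.133) or log2(FPKM + 0.1) (-0.30, adjusted p = 0.132). The fall in both cell lines was called whichever library was left out, with log2 changes from -1.96 to -1.72 in MCA205 cells and from -1.14 to -0.94 in TC1 cells.

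Set in order by mean FPKM, Cdk2 was highest in wild-type TC1 cells (71.7 ± 12.6 FPKM, SD, n = 3) and wild-type MCA205 cells (64.6 ± 9.16), followed by sgNAT10 TC1 cells (34.8 ± 2.68), wild-type tumours (21.1 ± 1.09), sgNAT10 MCA205 cells (18.1 ± 1.07) and sgNAT10 tumours (17.1 ± 1.95). The ranges of the wild-type lines overlapped, as did those of sgNAT10 MCA205 cells and sgNAT10 tumours, so these neighbours are not ordered beyond their spread. The tables may have been normalised separately, so levels from different tables are set side by side without a test. In bulk tumour RNA fewer cells of a type and less RNA per cell cannot be told apart. The plot of FPKM by library shows these levels beside those of the other genes.

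**Figure D1:**
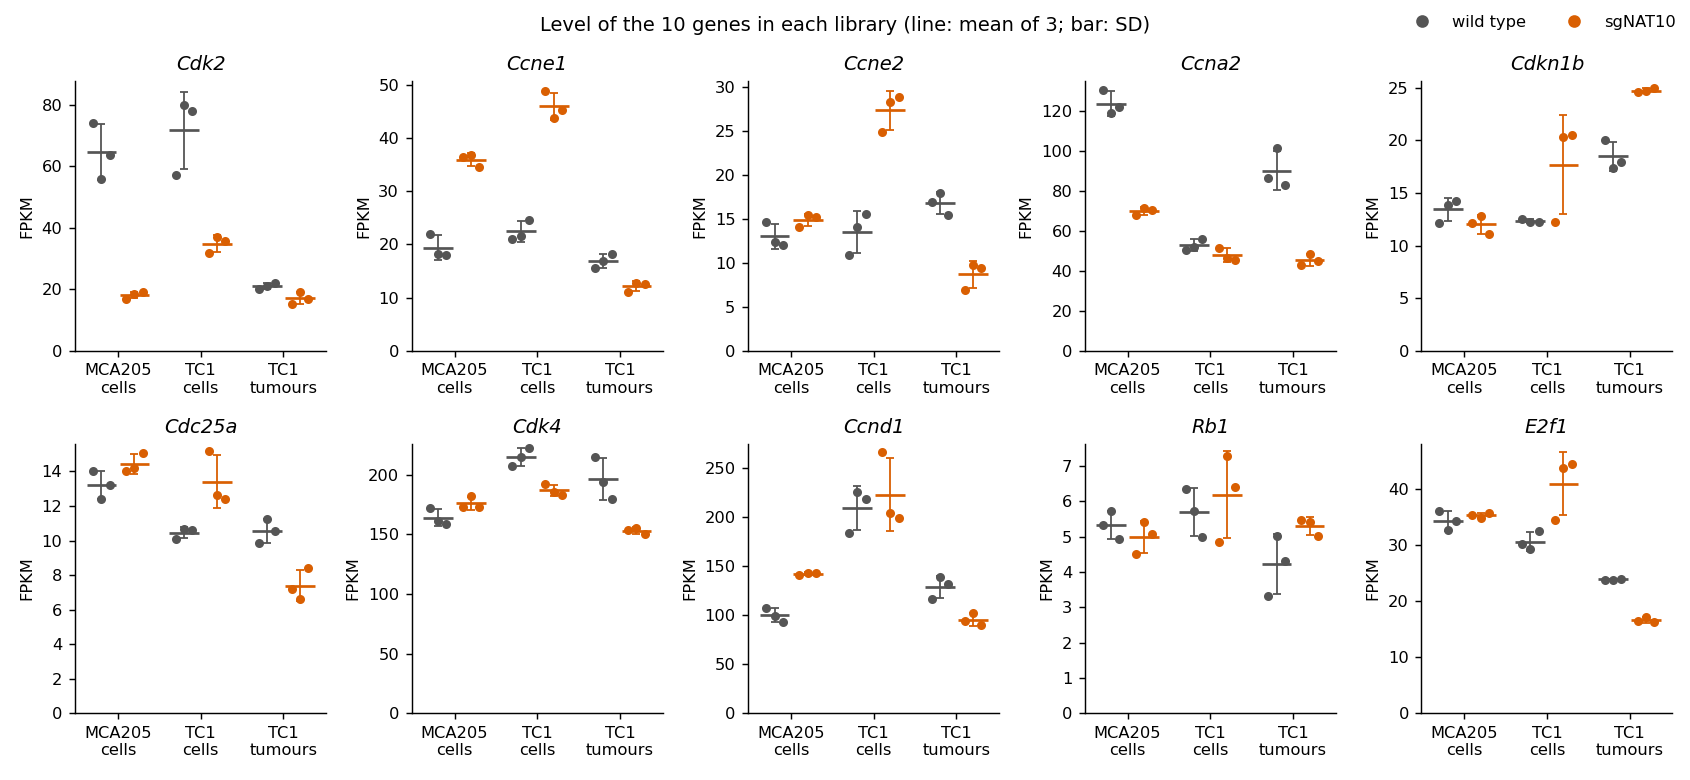
FPKM of the 10 genes (y axis, linear from 0) in each library, with wild type in grey and sgNAT10 in orange for MCA205 cells, TC1 cells and TC1 tumours on the x axis; points are libraries, lines the mean of 3 and bars the SD. Cdk2 is lower in every sgNAT10 library of both cell lines, Ccne1 is higher there and lower in the sgNAT10 tumours, and Ccna2 is lower in sgNAT10 MCA205 cells and tumours.

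The fall of Cdk2 was carried by several of its transcripts, each tested on its own estimated counts over all transcripts of a table. The exon-including coding form ENSMUST00000026416, the most abundant one, was listed at 37.5, 33.9 and 34.9 FPKM in wild-type and 7.92, 10.8 and 12.7 FPKM in sgNAT10 MCA205 cells (log2 change -1.77, standard error 0.17, edgeR adjusted p = 0.00411). TC1 cells held it at 31.7, 42.9 and 32.9 against 19.4, 25.5 and 21.7 FPKM (log2 change -0.68, standard error 0.15, edgeR adjusted p = 0.0483). The tumours had 13.6, 14.4 and 14.5 against 9.79, 12.3 and 11.6 FPKM (log2 change -0.52, edgeR adjusted p = 0.180). The groups did not overlap in any of the 3 tables, while the test passed in the cell lines only, and in TC1 cells the call was lost whichever library was left out (edgeR adjusted p from 0.0859 to 0.155).

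The exon-skipping coding form ENSMUST00000026415 fell more steeply in TC1 cells, from 5.51, 13.8 and 8.65 to 0.868, 0.518 and 0.764 FPKM (log2 change -3.67, standard error 0.43, edgeR adjusted p = 0.00925), and this call was lost without sgNAT10 3 (log2 change -3.69, edgeR adjusted p = 0.0520). Its share of the Cdk2 estimated counts there was 11.1 ± 3.69% in wild-type and 1.86 ± 0.539% in sgNAT10 cells (SD, n = 3), without overlap (exact two-sided permutation p = 0.1, the smallest that 3 against 3 libraries can give; adjusted p = 0.222 over 20 transcript shares). The exon-including form took 47.6 ± 6.88% and 60.8 ± 6.25% of the counts in the same cells (exact permutation p = 0.1, adjusted p = 0.222), and neither share passed a threshold that this design could not reach. In MCA205 cells the skipped form was at 3.29, 3.64 and 1.68 against 0, 0 and 1.22 FPKM (log2 change -2.83, standard error 2.18, edgeR adjusted p = 0.506). Without sgNAT10 3, which left the sgNAT10 libraries listed at 0, it passed the test (edgeR adjusted p = 0.0216). Its share was 3.90 ± 1.72% against 1.92 ± 3.33%, with overlap, and the spread between the sgNAT10 libraries exceeded the difference. In the tumours it was at 0.373 to 1.91 FPKM against 0.387 to 0.868 FPKM (edgeR adjusted p = 0.538).

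The intron-keeping ENSMUST00000219099 made up 40.2 ± 7.05% of the Cdk2 counts in wild-type and 31.6 ± 15.7% in sgNAT10 MCA205 cells. Its level there was 30.2, 15.6 and 24.02 against 7.02, 5.42 and 2.40 FPKM (log2 change -2.23, standard error 0.47, edgeR adjusted p = 0.0397), and the call was lost whichever library was left out (edgeR adjusted p from 0.0588 to 0.128). TC1 cells held 16.4, 18.8 and 26.8 against 9.15, 2.93 and 8.24 FPKM (log2 change -1.59, edgeR adjusted p = 0.109). The tumours held 4.84, 3.97 and 2.18 against 2.38, 2.12 and 1.95 FPKM (edgeR adjusted p = 0.284). The groups did not overlap in the cell lines and overlapped in the tumours.

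ENSMUST00000219601, another retained-intron transcript that covers the first intron, did not pass the test in any table. It was at 2.03 to 2.61 against 1.61 to 2.09 FPKM in MCA205 cells, 2.95 to 4.23 against 1.86 to 4.11 in TC1 cells and 0.963 to 2.18 against 1.83 to 2.997 in the tumours. Its share of the Cdk2 counts was 3.75 ± 0.187% against 10.4 ± 1.19% in MCA205 cells, 5.30 ± 0.406% against 9.39 ± 3.09% in TC1 cells and 7.58 ± 2.85% against 14.5 ± 2.00% in the tumours, without overlap in any of them (exact permutation p = 0.1 each, adjusted p = 0.222). ENSMUST00000219983 reached a group mean of 1 FPKM only in wild-type TC1 cells, where it was listed at 0, 0 and 4.60 against 0, 2.76 and 0 FPKM. The remaining 2 transcripts stayed below 1 FPKM in every library. Of the Cdk2 transcripts, 2 were called lower in each cell line and 0 in the tumours, against 4.88%, 4.40% and 0.00223% of all transcripts called lower (10.6%, 8.49% and 0.0067% in either direction). For the tumours, where edgeR called 3 of 44782 transcripts at all, DESeq2 called 1 of Cdk2, ENSMUST00000026416. The split of reads among such overlapping forms rests on the authors' assignment, as the relatives share most of their sequence.

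**Figure D2:**
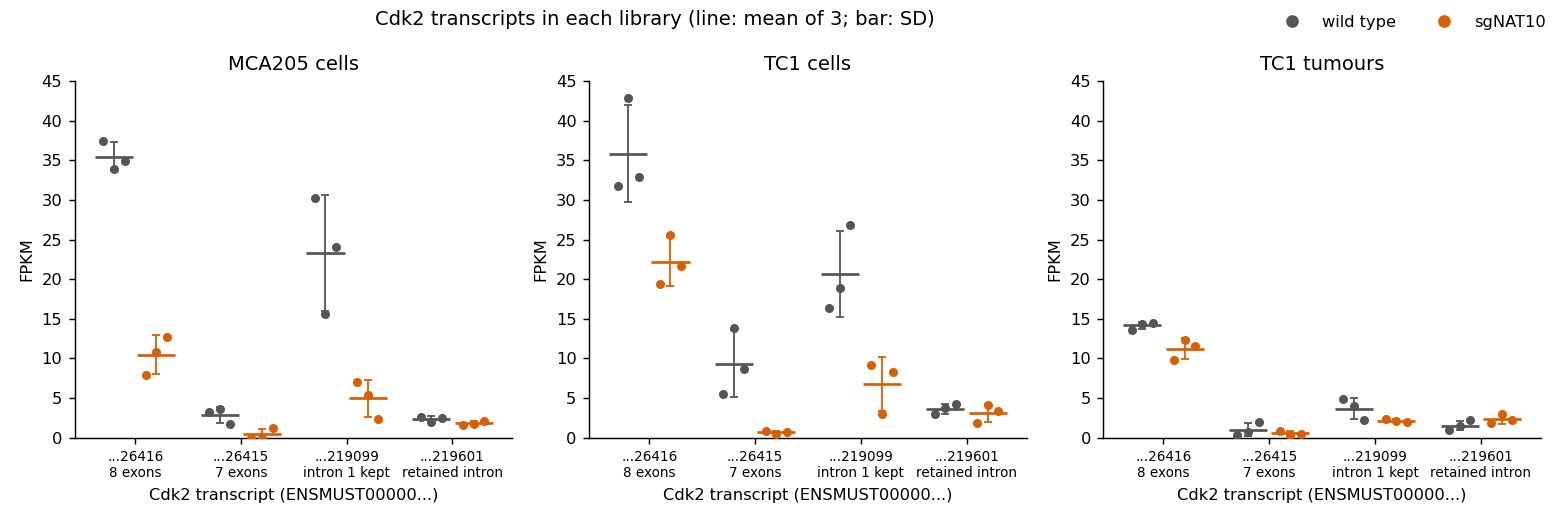
FPKM (y axis) of the 4 most abundant Cdk2 transcripts (x axis) in each library of MCA205 cells, TC1 cells and TC1 tumours, with wild type in grey and sgNAT10 in orange; points are libraries, lines the mean of 3 and bars the SD. The exon-including form ENSMUST00000026416 is lower in every sgNAT10 library, while ENSMUST00000219601 overlaps between the groups.

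The annotated genes on each side of Cdk2 were read as well. Pmel, a melanosome gene on the opposite strand, begins inside Cdk2 and overlaps it by 837 bases (chr10:128704195-128720238), covering the first exon and part of the first intron. It was at 0.0935 to 0.397 FPKM in all 18 libraries and was not called. Its annotated exons nearest Cdk2 lie at chr10:128704195-128704228, inside the first intron of Cdk2, and chr10:128705180-128705284, beyond the end of Cdk2. The rest of the overlap is intron of Pmel. Whether counting used strand is not stated. Reads of the former Pmel exon thus cannot be told apart from those of Cdk2 transcripts that keep the first intron. Rab5b, an endosome GTPase gene on the other side (chr10:128677175-128696264), rose from 17.7 ± 0.271 to 22.1 ± 0.809 FPKM in MCA205 cells (edgeR adjusted p = 0.000606), fell from 28.1 ± 0.231 to 23.8 ± 2.27 FPKM in TC1 cells (edgeR adjusted p = 0.0216) and stood at 21.7 ± 2.78 and 24.5 ± 3.09 FPKM in the tumours (edgeR adjusted p = 0.716).

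Of the cyclin E genes, which encode the G1 partners of CDK2, Ccne1 rose in both cell lines and Ccne2 in TC1 cells, and both fell in the tumours. Ccne1 was at 22.03, 18.2 and 18.01 FPKM in wild-type and 36.5, 36.9 and 34.6 FPKM in sgNAT10 MCA205 cells, a log2 change of 0.89 (standard error 0.09, edgeR adjusted p = 0.000292). The TC1 libraries read 21.1, 21.7 and 24.6 against 48.8, 43.8 and 45.3 FPKM, a log2 change of 1.01 (standard error 0.09, edgeR adjusted p = 0.000293). All sgNAT10 libraries of both lines lay above all wild-type ones. In the tumours the order was reversed, with Ccne1 at 15.5, 16.9 and 18.2 against 11.04, 12.8 and 12.6 FPKM (log2 change -0.61, standard error 0.11, edgeR adjusted p = 0.0144). That call was lost without any 1 of the sgNAT10 tumours (edgeR adjusted p from 0.0520 to 0.0734), with log2 changes from -0.66 to -0.56.

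Ccne2, the second cyclin E gene, rose in TC1 cells from 10.8, 14.1 and 15.5 to 24.8, 28.3 and 28.9 FPKM (log2 change 0.98, standard error 0.14, edgeR adjusted p = 0.00164). In MCA205 cells it was at 14.7, 12.3 and 11.96 against 14.1, 15.4 and 15.2 FPKM, with overlapping groups (log2 change 0.20, edgeR adjusted p = 0.122). It passed the test without wild type 1 (log2 change 0.31, edgeR adjusted p = 0.00433) and with DESeq2 (adjusted p = 0.0217). In the tumours it fell from 16.9, 17.9 and 15.5 to 6.92, 9.74 and 9.37 FPKM (log2 change -1.08, standard error 0.17, edgeR adjusted p = 0.00944), and this call held whichever library was left out.

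Ccna2, which encodes the cyclin A that partners CDK2 in S phase and CDK1 later, fell in MCA205 cells and in the tumours. The MCA205 libraries held 130.5, 119 and 122 FPKM against 67.9, 71.6 and 70.3 FPKM (log2 change -0.81, standard error 0.05, edgeR adjusted p = 3.08e-05). The tumours held 86.3, 101 and 82.7 against 43.0, 48.6 and 44.7 FPKM (log2 change -1.11, standard error 0.13, edgeR adjusted p = 0.00500). Both groups of 3 were clear of each other, and both calls held whichever library was left out. In TC1 cells Ccna2 was at 50.3, 52.0 and 56.0 against 51.6, 46.2 and 45.3 FPKM, overlapping and not called (log2 change -0.19, edgeR adjusted p = 0.115).

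Cdkn1b, the p27 inhibitor gene, was the one of the 10 genes that rose in the tumours, from 20.1, 17.4 and 17.9 to 24.6, 24.7 and 25.0 FPKM (log2 change 0.38, standard error 0.10, edgeR adjusted p = 0.0366). The sgNAT10 tumours were nearly level with each other and above every wild-type tumour, but the call was lost without any 1 library except wild type 1 (edgeR adjusted p from 0.0606 to 0.141) and with no filter (0.0600). In TC1 cells Cdkn1b was at 12.6, 12.2 and 12.2 against 12.2, 20.4 and 20.5 FPKM (log2 change 0.44, edgeR adjusted p = 0.118): sgNAT10 1 matched the wild type and the other 2 lay far above. Without sgNAT10 1 the log2 change was 0.74 (edgeR adjusted p = 0.000462), and with all 6 libraries it passed with DESeq2 (adjusted p = 0.0173) and with the dispersion of all 18 libraries (edgeR adjusted p = 0.00931). In MCA205 cells it was at 12.2 to 14.3 against 11.1 to 12.8 FPKM (log2 change -0.12, edgeR adjusted p = 0.149).

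Cdc25a, the phosphatase gene, was at 10.1, 10.7 and 10.6 FPKM in wild-type and 15.2, 12.6 and 12.4 FPKM in sgNAT10 TC1 cells (log2 change 0.30, standard error 0.09, edgeR adjusted p = 0.0355), a rise that lost its call without wild type 2 (log2 change 0.34, edgeR adjusted p = 0.0840). With all 6 libraries it was also lost with no filter (edgeR adjusted p = 0.0504) and with the replicate numbers fitted as a block (0.0896). In the tumours it fell from 9.86, 11.3 and 10.6 to 7.17, 6.62 and 8.40 FPKM (log2 change -0.64, standard error 0.13, edgeR adjusted p = 0.0211), a call lost without wild type 2, sgNAT10 1 or sgNAT10 2 (edgeR adjusted p from 0.0689 to 0.0986). In MCA205 cells it was at 12.4 to 14.1 against 14.0 to 15.1 FPKM and was not called (log2 change 0.15, edgeR adjusted p = 0.0997), although DESeq2 called it (adjusted p = 0.0209). It also passed with library size alone, no filter or a filter of 1 CPM (edgeR adjusted p from 0.0325 to 0.0435) and without wild type 1 (log2 change 0.20, edgeR adjusted p = 0.0279).

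Of the upstream genes, Ccnd1, the cyclin D1 gene, rose in MCA205 cells from 107, 99.8 and 93.7 to 141, 143 and 144 FPKM (log2 change 0.52, standard error 0.05, edgeR adjusted p = 0.00034), and this call held whichever library was left out. TC1 cells held 184, 226 and 219 against 266, 204 and 199 FPKM, with sgNAT10 1 above all others (log2 change 0.05, edgeR adjusted p = 0.831). The tumours held 117, 139 and 132 against 94.8, 103 and 89.8 FPKM (log2 change -0.55, standard error 0.12, edgeR adjusted p = 0.0218), a fall that lost its call without wild type 2 or any sgNAT10 tumour (edgeR adjusted p from 0.0685 to 0.0986). Cdk4, the kinase gene that cyclin D1 serves, was the most abundant kinase gene of the set, at 159 to 172 FPKM in wild-type and 173 to 182 in sgNAT10 MCA205 cells (log2 change 0.11, edgeR adjusted p = 0.0760). It passed the test there with DESeq2 (adjusted p = 0.00625), with 2 other scalings and 2 other filters (edgeR adjusted p from 0.0124 to 0.0456), without wild type 1 (0.14, edgeR adjusted p = 0.0234) and without sgNAT10 3 (0.12, edgeR adjusted p = 0.0328). In TC1 cells it fell from 208, 215 and 222 to 192, 186 and 183 FPKM (log2 change -0.25, edgeR adjusted p = 0.0165). That call was lost without any 1 library except sgNAT10 1. With all 6 libraries RLE size factors ended it (log2 change -0.19, edgeR adjusted p = 0.0879). So did no filter (0.140), a filter of 1 CPM (0.0591), the dispersion of all 18 libraries (0.145) and DESeq2 (adjusted p = 0.0783). In the tumours the groups did not overlap, at 180.0 to 215 against 149.9 to 156 FPKM, but the test was not passed (log2 change -0.51, edgeR adjusted p = 0.0625). It was passed without wild type 3 (-0.62, edgeR adjusted p = 0.0242), with the dispersion of all 18 libraries (edgeR adjusted p = 0.0021) and with DESeq2 (adjusted p = 0.0217).

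E2f1, the E2F factor held by RB until it is phosphorylated, was at 32.7 to 36.2 against 34.8 to 35.7 FPKM in MCA205 cells (log2 change 0.05, edgeR adjusted p = 0.515). In TC1 cells it rose from 30.2, 29.3 and 32.5 to 34.5, 43.9 and 44.6 FPKM (log2 change 0.37, standard error 0.10, edgeR adjusted p = 0.0274), which was lost without wild type 2 (log2 change 0.38, edgeR adjusted p = 0.0949). In the tumours it fell from 23.9, 23.9 and 23.9 to 16.5, 17.2 and 16.3 FPKM (log2 change -0.64, standard error 0.10, edgeR adjusted p = 0.0108), and without any 1 of the sgNAT10 tumours the edgeR adjusted p was 0.0502 to 0.0643. Rb1, which encodes the RB protein itself, was the least abundant of the 10 at 3.33 to 7.29 FPKM and was not called in any table (edgeR adjusted p = 0.228, 0.855 and 0.318), with overlapping groups in the cell lines and the tumours.

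Counted together, 2 of the 10 genes were called higher (Ccne1 and Ccnd1) and 2 lower (Cdk2 and Ccna2) in sgNAT10 MCA205 cells, where edgeR called 40.6% of all 18101 genes tested, 21.2% higher and 19.4% lower. In TC1 cells 4 were higher (Ccne1, Ccne2, Cdc25a and E2f1) and 2 lower (Cdk2 and Cdk4), against 37.9% of 18823 genes called, 15.9% higher and 22% lower. The share of members called was near the background in MCA205 cells and above it in TC1 cells, with only 10 genes. In the tumours 1 was higher (Cdkn1b) and 7 lower (Cdk2, Ccne1, Ccne2, Ccna2, Cdc25a, Ccnd1 and E2f1), against 17.4% of 19244 genes called, 7.65% higher and 9.72% lower. The median log2 change of the 10 genes was 0.08 in MCA205 cells, 0.17 in TC1 cells and -0.58 in the tumours, where the medians of all genes tested were -0.03, -0.08 and 0.02. Groups did not overlap in FPKM for 5 of the 10 genes in MCA205 cells, 6 in TC1 cells and 9 in the tumours, against 52.6%, 50.8% and 40.4% of all genes tested. All 10 passed the filter on low counts in every table.

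The tumour count depended on 4 of the 6 libraries. The number of the 10 genes called fell from 8 to 4 without wild type 2, to 2 without sgNAT10 1, to 2 without sgNAT10 2 and to 3 without sgNAT10 3, while Ccne2 and Ccna2 were called in each of these. All genes called in the tumours dropped in the same fits, from 3343 to 1080, 975, 555 and 906. In TC1 cells 3 genes were called without wild type 2, and in MCA205 cells 7 without wild type 1. Leaving out the pair of MCA205 libraries nearly free of liver and intestine transcripts gave 6, where Cdk2 had a log2 change of -1.73 (edgeR adjusted p = 8e-05). The plot of log2 changes shows the 3 comparisons side by side.

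**Figure D3:**
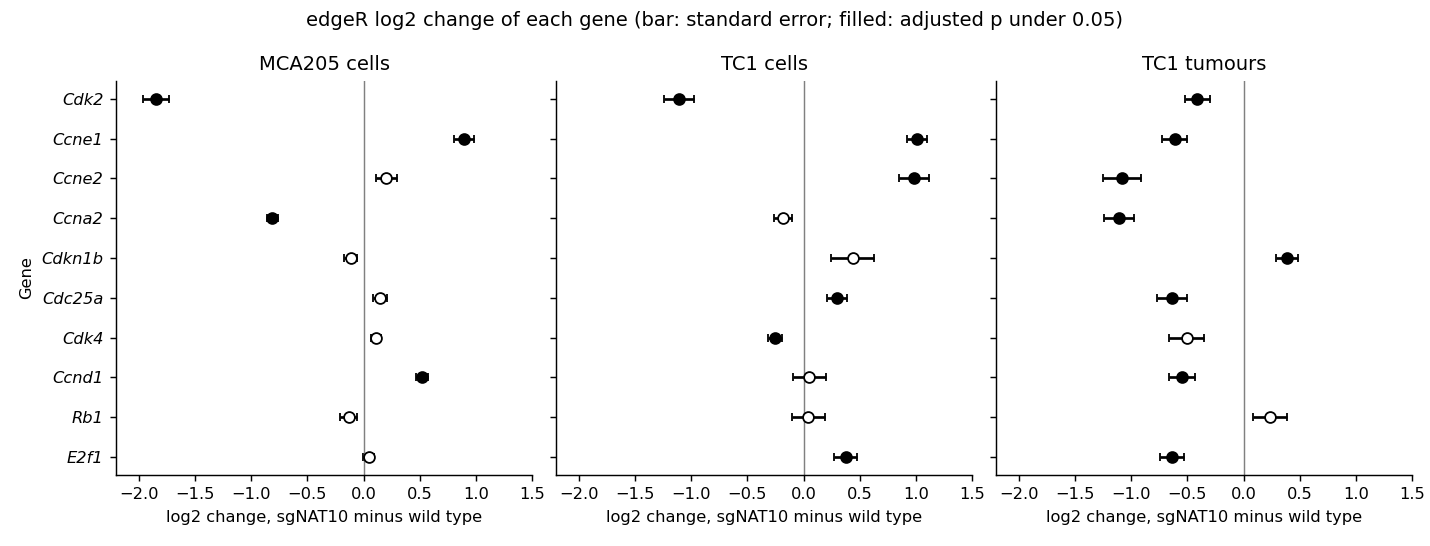
edgeR log2 change, sgNAT10 minus wild type (x axis), of each of the 10 genes (y axis) in MCA205 cells, TC1 cells and TC1 tumours; bars are standard errors and filled points have an adjusted p under 0.05. Cdk2 is left of 0 in all 3 panels, and Ccne1 and Ccne2 lie right of 0 in the cells and left of 0 in the tumours.

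Whether the effect of sgNAT10 differed between settings was tested directly as a difference of effects. Between MCA205 and TC1 cells 5 of the 10 genes differed, against 36% of 20272 genes tested: the fall of Cdk2 was larger in MCA205 cells (difference of log2 changes -0.79, standard error 0.19, edgeR adjusted p = 0.00822), and Ccne2 (-0.83), Ccna2 (-0.67) and E2f1 (-0.38) were lower and Cdk4 (0.31) higher in MCA205 relative to TC1 cells. For Ccne1 the difference was -0.16 (standard error 0.14, edgeR adjusted p = 0.414). Without sgNAT10 1 of the TC1 cells 8 genes differed. All genes that differed were not counted in that fit, so this number has no background beside it. The E2f1 difference (edgeR adjusted p = 0.0476) lost its call without any 1 library other than wild type 3 and sgNAT10 1 of the TC1 cells (edgeR adjusted p from 0.0518 to 0.112). With all libraries, that of Cdk4 lost its call with the dispersion of all 18 libraries (edgeR adjusted p = 0.0839). Between the tumours and the TC1 cells they were grown from 7 differed, against 28.2% of 20706 genes: Cdk2 by 0.62 (standard error 0.18, edgeR adjusted p = 0.0234), which is a smaller fall in the tumours, and Ccne1 (-1.69), Ccne2 (-2.13), Ccna2 (-0.99), Cdc25a (-1.01), Ccnd1 (-0.67) and E2f1 (-1.08) in the downward direction. The Cdk2 difference lost its call without wild type 2, wild type 3 or sgNAT10 1 of the TC1 cells (edgeR adjusted p from 0.0519 to 0.0625). That of Ccnd1 lost it without wild type 1 of the TC1 cells, wild type 2 of the tumours or any sgNAT10 tumour (edgeR adjusted p from 0.0529 to 0.0714). Both contrasts use the TC1 cell libraries.

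Ratios within a library, which do not depend on its scaling, set Cdk2 beside related genes. As a share of the summed FPKM of Cdk1, Cdk2, Cdk4 and Cdk6, Cdk2 was at 23.3, 19.9 and 21.1% in wild-type and 7.04, 7.33 and 7.78% in sgNAT10 MCA205 cells, and at 18.5, 23.6 and 22.4% against 11.5, 13.3 and 13.1% in TC1 cells (exact two-sided permutation p = 0.1 each, the smallest possible, adjusted p = 0.15 over 9 ratios). In the tumours the share was 7.99 ± 0.964% against 8.53 ± 0.859% (SD, n = 3; exact permutation p = 0.5, adjusted p = 0.562), while Cdk1, the mitotic kinase gene, fell there from 37.1 ± 4.80 to 21.2 ± 0.292 FPKM (log2 change -1.01, edgeR adjusted p = 0.00763). The groups were separate in culture and overlapped in the tumours.

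Ccne1 as a share of Ccne1 and Ccne2 was 59.9 ± 0.272% in wild-type and 70.7 ± 1.32% in sgNAT10 MCA205 cells (exact permutation p = 0.1, adjusted p = 0.15), 62.7 ± 2.97% and 62.7 ± 3.11% in TC1 cells (exact permutation p = 0.9) and 50.2 ± 3.45% and 58.5 ± 2.58% in the tumours (exact permutation p = 0.1, adjusted p = 0.15). The summed FPKM of the inhibitor genes Cdkn1a and Cdkn1b per FPKM of Cdk2 was 0.335, 0.531 and 0.463 in wild-type and 1.73, 1.61 and 1.55 in sgNAT10 MCA205 cells. In TC1 cells it was 1.98, 1.53 and 1.70 against 11.4, 10.7 and 11.2, and in the tumours 2.43, 1.79 and 1.75 against 3.32, 2.39 and 2.73 (exact permutation p = 0.1, 0.1 and 0.2; adjusted p = 0.15, 0.15 and 0.257). Within each cell line, inhibitor transcript per Cdk2 transcript was higher in every sgNAT10 library than in any wild-type library of that line. Cdk2 is the divisor, so its own fall raises this ratio. In MCA205 cells the log2 change of the ratio was 1.88 and that of Cdk2 -1.85, so the ratio there mostly repeats the fall of Cdk2. In TC1 cells the 2 values were 2.68 and -1.11. The tumour groups overlapped.

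**Figure D4:**
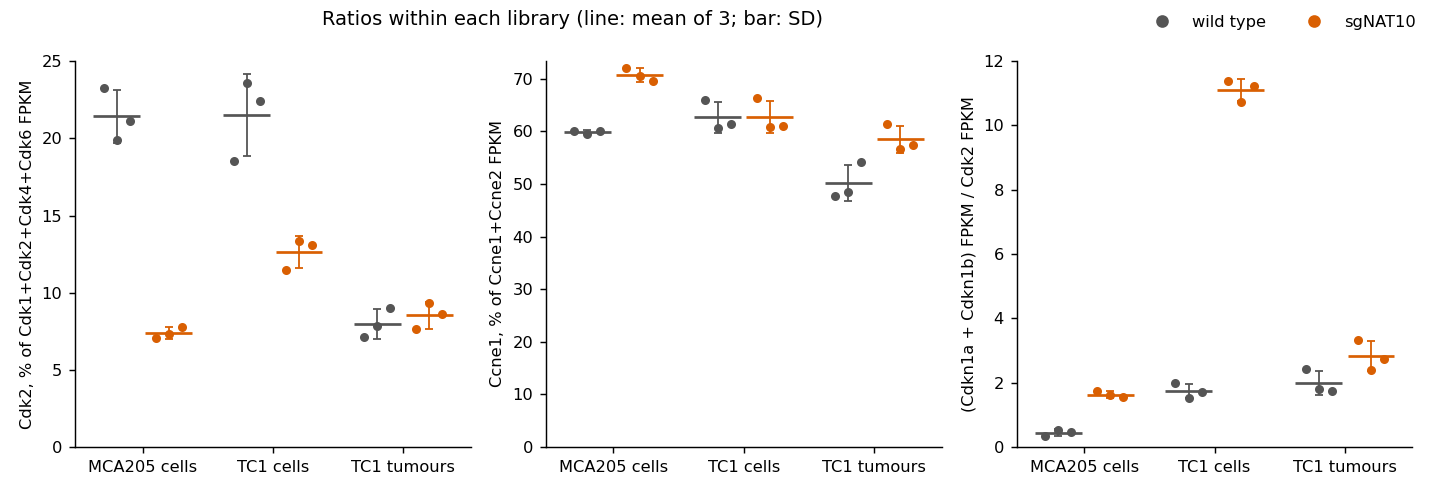
Within-library ratios (y axes, linear from 0) in MCA205 cells, TC1 cells and TC1 tumours (x axis), with wild type in grey and sgNAT10 in orange: Cdk2 as percent of 4 kinase genes, Ccne1 as percent of the cyclin E genes, and Cdkn1a plus Cdkn1b per Cdk2; points are libraries, lines the mean of 3 and bars the SD. The sgNAT10 TC1 cells reach 10.7 to 11.4 in the last panel against 1.53 to 1.98 in wild type.

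Of 6 other inhibitor genes, 1 rose and 1 fell in MCA205 cells, 3 rose and 1 fell in TC1 cells, and 1 rose and 1 fell in the tumours. Of all genes tested, 21.2% were higher and 19.4% lower in MCA205 cells. The shares were 15.9% and 22% in TC1 cells, and 7.65% and 9.72% in the tumours. They stand beside the next lists too. Differences between settings were not tested for these lists. Cdkn1a, the p21 gene, rose from 14.6 ± 1.68 to 17.4 ± 0.799 FPKM in MCA205 cells (edgeR adjusted p = 0.0394) and from 110 ± 9.75 to 368 ± 16.2 FPKM in TC1 cells (log2 change 1.65, edgeR adjusted p = 3.44e-05), and was at 23.2 ± 4.49 and 22.9 ± 2.82 FPKM in the tumours (edgeR adjusted p = 0.611). Cdkn2d, an inhibitor of CDK4 and CDK6, rose in TC1 cells (log2 change 0.96, edgeR adjusted p = 0.0010) and fell in the tumours (log2 change -0.54, edgeR adjusted p = 0.0317), and Cdkn2b, of the same family, rose in both (log2 change 0.46 and 0.77). Cdkn2c, the p18 gene, fell in MCA205 cells from 21.2 ± 0.406 to 13.7 ± 0.393 FPKM (edgeR adjusted p = 0.000113).

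Among the other cyclin and kinase genes 2 of 6 tested rose and 4 fell in MCA205 cells, 3 rose and 1 fell in TC1 cells, and 0 rose and 3 fell in the tumours, where 17.4% of all genes were called against 40.6% and 37.9% in the cell lines. Ccnd3, a D-type cyclin gene, rose in both lines (log2 change 0.47 and 0.83). Ccnd2, another one, fell in TC1 cells from 44.4 ± 1.57 to 14.4 ± 2.08 FPKM (edgeR adjusted p = 0.000108) and rose in MCA205 cells (log2 change 0.31). The mitotic cyclin genes Ccnb1 and Ccnb2 fell in MCA205 cells (log2 change -0.47 and -0.58) and in the tumours (-1.22 and -1.04), while Ccnb2 rose in TC1 cells (0.24). Of 8 genes for CDK activation and phosphorylation 2 rose and 5 fell in MCA205 cells, 2 rose and 3 fell in TC1 cells, and 0 rose and 4 fell in the tumours. Cdc25b, a phosphatase gene that acts at entry into mitosis, and Pkmyt1, an inhibitory kinase gene, fell in all 3 settings (log2 change -0.17, -0.48 and -1.01 for Cdc25b, and -0.20, -0.48 and -0.82 for Pkmyt1).

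Of 14 pocket protein and E2F family genes, 5 rose and 3 fell in MCA205 cells, 5 rose and 4 fell in TC1 cells, and 0 rose and 7 fell in the tumours. The 3 of 14 lower in MCA205 cells are near the 19.4% of all genes called lower there. E2f8, an atypical E2F that represses transcription, fell in MCA205 cells (log2 change -0.43), rose in TC1 cells (0.80) and fell in the tumours (-1.34). E2f2, an activating E2F, rose in MCA205 cells (0.53) and fell in TC1 cells (-0.56) and the tumours (-1.22). Of 13 tested genes for the turnover of p27, cyclin E and CDC25A, 1 rose and 6 fell in MCA205 cells, 7 rose and 2 fell in TC1 cells, and 0 rose and 5 fell in the tumours. Skp2, the subunit that directs p27 to degradation, fell in MCA205 cells from 20.6 ± 2.25 to 17.5 ± 0.458 FPKM (edgeR adjusted p = 0.000773), rose in TC1 cells from 11.9 ± 1.71 to 17.0 ± 3.14 FPKM (edgeR adjusted p = 0.00328) and fell in the tumours from 13.05 ± 1.79 to 8.12 ± 0.831 FPKM (edgeR adjusted p = 0.0142).

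The 25 E2F target genes of DNA replication, which lie downstream of the kinase complexes, fell broadly in the tumours. There 22 were called lower and 0 higher, with a median log2 change of -1.03 against 0.02 for all genes tested and 9.72% of all genes called lower. All 25 had a log2 change below 0 in every fit that left out a library, and 16 to 24 of them were called lower. Uhrf1, which guides DNMT1 to replicated DNA, went from 57.2 ± 4.89 to 22.6 ± 1.62 FPKM (edgeR adjusted p = 0.00195). Chaf1a, a histone chaperone gene, fell from 19.1 ± 1.72 to 7.496 ± 0.583 FPKM (edgeR adjusted p = 0.00202), as did Cdc6, which licenses replication origins, from 9.40 ± 1.38 to 3.89 ± 0.154 FPKM (edgeR adjusted p = 0.00202). In MCA205 cells 12 were lower and 1 higher (median -0.15 against -0.03 for all genes). In TC1 cells 10 were higher and 3 lower (median 0.06 against -0.08), with Uhrf1 and Cdc6 among those that rose (log2 change 0.35 and 0.50) and the licensing gene Cdt1 among those that fell, from 88.2 ± 2.59 to 44.2 ± 1.56 FPKM (edgeR adjusted p = 2.66e-05).

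**Figure D5:**
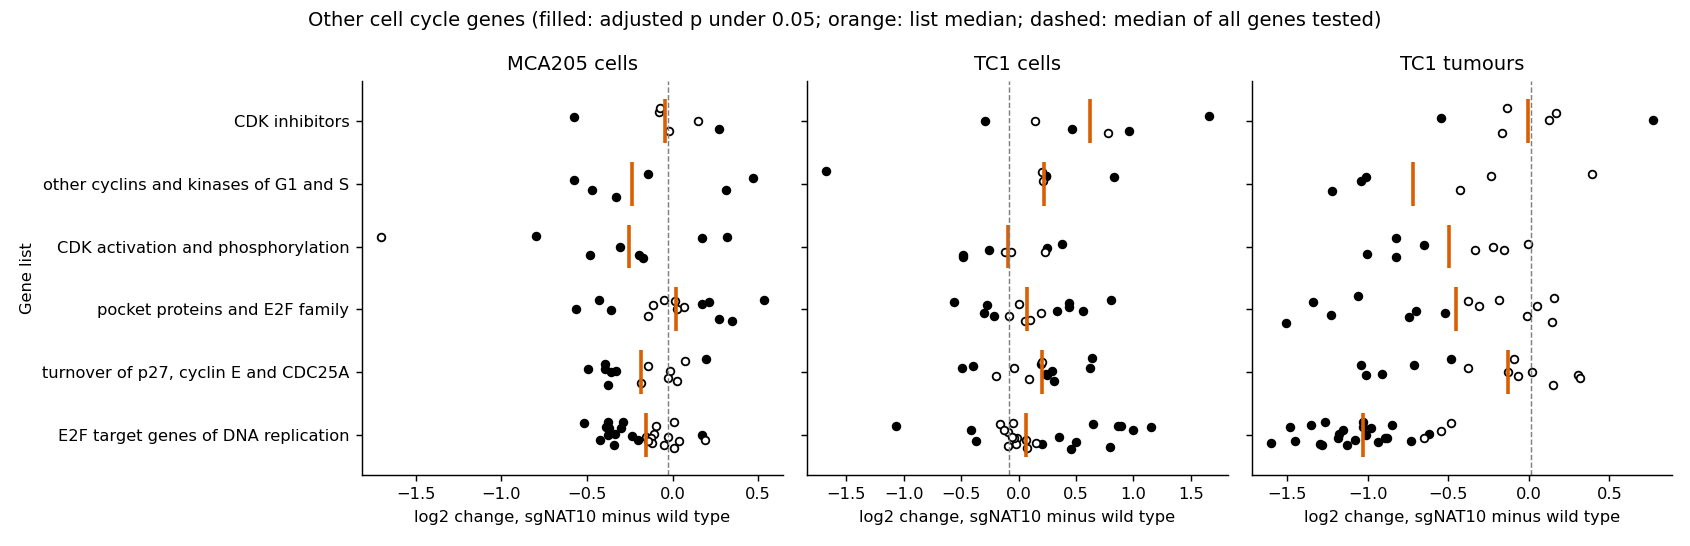
edgeR log2 change, sgNAT10 minus wild type (x axis), of the genes of 6 lists (y axis) in MCA205 cells, TC1 cells and TC1 tumours; filled points have an adjusted p under 0.05, the orange line is the list median and the dashed line the median of all genes tested. The E2F target genes all lie left of 0 in the tumours, with a median of -1.03, and on both sides of 0 in the cells.

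Several marker lists of other cell types and tissues moved with genotype in the same tumours in which these genes fell. Beside the counts below, 40.4% of all genes tested did not overlap in FPKM between the tumour groups. The summed FPKM of 4 skeletal muscle genes was 14.7 to 20.2 in wild-type and 66.1 to 106 in sgNAT10 tumours, of 4 adipocyte genes 21.4 to 39.0 against 54.4 to 77.0, and of 4 endothelial genes 24.4 to 32.5 against 43.8 to 55.2, with all 4 genes of each list higher without overlap. The 5 red blood cell genes were lower without overlap (170 to 549 against 74.9 to 128 FPKM summed), and 6 macrophage genes summed to 683 to 757 against 463 to 563 FPKM. Of these 6, Lyz2 (511 to 571 against 297 to 369 FPKM) and Mrc1 (23.8 to 33.6 against 12.9 to 18.6 FPKM) were lower without overlap, and the other 4 overlapped. The 10 liver and intestine genes summed to 1.38 to 159 FPKM in wild-type and 382 to 423 FPKM in sgNAT10 tumours. Of them, 8 were higher without overlap, while Vil1 and Reg3g overlapped. In wild-type TC1 cells in culture this list summed to 681 to 1380 FPKM and the red blood cell genes to 19.3 to 78.9 FPKM. Neither list was thus confined to the tumours. T and NK cell genes overlapped, with sums up to 22.7 and 24.8 FPKM. The sums of the neutrophil, B cell, lung epithelial, and fibroblast and mural cell lists overlapped too. In the last of these, 2 of 6 genes were higher and 1 lower without overlap. The mesenchymal list summed to 1588 to 1831 against 1844 to 1979 FPKM, with 3 of 6 genes higher without overlap. The part of these markers in the tumour results was not tested.

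Over all 18 libraries genes whose log2(FPKM + 1) followed that of Cdk2 closely, among 9620 genes with a mean of at least 5 FPKM, included Cops7a (Pearson r = 0.959), Acsf3 (0.956), Fads2 (0.926) and Gask1b (0.910). The libraries share lines and genotypes, so these are descriptions of likeness only. Within single tables r for these 4 genes was 0.956 to 0.989 in the 6 MCA205 libraries, 0.917 to 0.957 in the 6 TC1 cell libraries and -0.39 to 0.808 in the 6 tumours. None of the other 9 genes was near the top over all 18 libraries. E2f1 was closest of them (r = 0.484, rank 2134), Ccne1 had r = 0.124 and Cdkn1b r = -0.498. Within single tables their r spread widely in both directions. It ran from -0.948 (Ccnd1) to 0.999 (Ccna2) in MCA205 cells and from -0.927 (Ccne1) to 0.942 (Cdk4) in TC1 cells. In the tumours it ran from -0.84 (Cdkn1b) to 0.945 (Ccne1).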

How the data were processed

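RNA of 18 libraries was measured by sequencing. Per the submitters' processing notes, the tools were Bowtie2, featureCounts, FastQC and Trim Galore, on mm10; versions and settings are not given in the sources used here. The authors deposited, per the file headers, a count, called an estimated count here, and an FPKM value for each transcript in 3 tables. The deposited estimated counts are whole numbers, and for transcripts with over 500 counts the deposited FPKM values follow them, divided by transcript length and 1 factor per library, with a spread of at most 0.2%. At low counts the relation does not hold exactly. Both were summed per gene.

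Counts were tested with edgeR 4.0.16 (R 4.3.3): quasi-likelihood F-test, TMM scaling, filterByExpr, Benjamini-Hochberg adjustment over all genes or transcripts of a table, called at an adjusted p under 0.05. Only the 6 libraries of a table entered its fit; differences of effects used 12 libraries of 2 tables. Ratios and transcript shares were compared by exact two-sided permutation. The fit was tested on simulated data. Alternatives were DESeq2 1.42.0, limma 3.58.1 on log2(FPKM + 1) or log2(FPKM + 0.1), other scalings and filters, a replicate block, and leaving out each library. The members and lists were chosen with earlier results of these data known. Named genes were all 10 members, Cdk2 transcripts with a group mean of at least 1 FPKM, up to 4 genes per list with the smallest p over the 3 comparisons, the neighbours of Cdk2 and the 5 genes most like it, of which 1 is not reported here. Leaving out 2 MCA205 libraries together was planned from those earlier results, and the list counts under the alternatives were added after seeing the data. Of the 18 libraries, no pair within a group looked like a repeat deposit of 1 library (chi-square per degree of freedom 11.0 to 244.7).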

Additional observations from a re-analysis of the deposited data

Results flagged for a closer look

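The effect of sgNAT10 differed between settings for 12 results, each by a test of the difference itself (edgeR interaction contrast, adjusted over all genes). Of all genes tested, 36% differed between MCA205 and TC1 cells and 28.2% between the tumours and TC1 cells. Values are the log2 change in the first setting minus that in the second. Between MCA205 and TC1 cells the difference was -0.79 for Cdk2, -0.83 for Ccne2, -0.67 for Ccna2, 0.31 for Cdk4 and -0.38 for E2f1. Cdk2 thus fell further in MCA205 cells, and Ccne2 rose in TC1 cells beyond its change in MCA205 cells. The Cdk4 difference lost its call with the replicate block (edgeR adjusted p = 0.0513) or the dispersion of all 18 libraries (0.0839). That of E2f1 (edgeR adjusted p = 0.0476) lost it in most fits without 1 library.

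Between the tumours and the cultured TC1 cells it was 0.62 for Cdk2, -1.69 for Ccne1, -2.13 for Ccne2, -0.99 for Ccna2, -1.01 for Cdc25a, -0.67 for Ccnd1 and -1.08 for E2f1. Ccne1, Ccne2, Cdc25a and E2f1 were called higher in the sgNAT10 cells and lower in the sgNAT10 tumours. Both contrasts share the TC1 cell libraries, whose sgNAT10 1 stood apart, and several marker lists of other cell types and tissues differed between the tumour groups. The part of either was not tested.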

How the results depend on the processing

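Refits used other scalings, filters, tools and designs, or left out the MCA205 pair of libraries. Counted per gene and refit, the direction of the 10 genes did not reverse in any of 280 results. Of these results, 243 kept their side of the threshold, 21 lost a call and 16 gained one. Of 180 results per gene and refit without 1 library, 143 kept it, 30 lost a call, 6 gained one and 1 reversed. All genes called moved from 7355 to 4741 in MCA205 cells with the dispersion of all 18 libraries, and in the tumours from 3343 to 2152 without a filter, 836 with the replicate block, 5544 with that dispersion, and 555 to 4612 without 1 library. Genes of the set called moved to 7 with DESeq2 in MCA205 cells and to 1 with the replicate block in the tumours. Without 1 library they were 4 to 7 in MCA205 cells, 3 to 7 in TC1 cells and 2 to 8 in the tumours, and 4 to 8 for the difference between the cell lines. All genes called in such fits were 6199 to 7055 in MCA205 cells and 5264 to 8123 in TC1 cells. They were not counted for the difference between the lines. Deviations of same-numbered libraries from their group means had correlations of -0.564 to 0.267. With 3 libraries in each group, these cannot tell whether the numbers pair the libraries. The main fits treated them as unpaired. Cdk2 transcripts called went to 1 without a filter and 0 with the replicate block in MCA205 cells (1 to 2 without 1 library). In TC1 cells they went to 1 with library size alone or without a filter and 0 with the block (0 to 1 without 1 library), and in the tumours to 1 with DESeq2. Direction reversed for results near 0. In TC1 cells Ccnd1 ranged from -0.0124 to 0.24 and ENSMUST00000219601 from -0.45 to 0.0337 without 1 library. In the tumours ENSMUST00000219983 was 0.00124 with library size alone, 0.0659 with the block and -0.93 to 1.37 without 1 library, and ENSMUST00000219047 ranged from -0.37 to 0.42. The tumour and TC1 cell difference for Cdkn1b was 0.0161 with library size alone, and that for Rb1 -0.0243 to 0.32 without 1 library. The log2 ratio of the Ccne1 share was 0.30 with counts in MCA205 cells and -0.0402 to 0.0413 without 1 library in TC1 cells. The cause was not tested for any of these. Library size alone moved the median of all genes in the tumours from 0.02 to 0.13.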
